A study of Mus musculus with 18 samples.

Results

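The series holds 2 groups of mouse macrophages given LPS alone, which stand in separate deposited count tables under different names. One, named LPS_only, is the LPS group of the first table, beside untreated cells. The other, named LPS_Ctrl, is the LPS group of the second table, the control of the rHDL experiments. Each has 3 libraries, so 6 of the series' 18 libraries enter the comparison, chosen by label and table alone. The cells, macrophages grown from the bone marrow of C57BL/6J mice, were cultured for 7 days in medium with serum and L929-cell supernatant, a source of M-CSF, then held in serum-free medium with less of the supernatant. Treatments began at day 8, and LPS was added, or not, in fresh medium after washing. The 9 other LPS libraries of the second table received rHDL (reconstituted high-density lipoprotein, CSL111) for 20 h, cholesterol-carrying liposomes, or the liposomes and then rHDL, and then LPS. How old the mice were, how much LPS was used and for how long are not stated in the sources at hand. The labels do not say that the libraries of a group came from different cultures or mice. The p-values therefore set the difference between the groups against the spread between these libraries, which may be technical. Table, experiment and any difference in LPS handling all run with the groups and cannot be told apart.

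LPS, a component of the outer membrane of Gram-negative bacteria, is bound by CD14 and by the TLR4 receptor with its partner MD-2. Through MyD88 the receptor activates NF-kB and MAP kinases, which switch on cytokine and chemokine genes within minutes to hours. Through TRIF it activates IRF3 and the gene of interferon beta, whose product acts back on the cell through its own receptor. The response is timed: early transcription factors and chemokines come first, and interferon-stimulated genes, IL-10 and the enzyme of nitric oxide synthesis build up later, while phosphatases, mRNA decay factors and SOCS proteins restrain the early genes.

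The first LPS group had 14895653 to 16210221 counts per library and the second 9528888 to 11106817. Levels are given in CPM, the usual depth-scaled count, after scaling by edgeR's TMM factors. Within a group the libraries were close, with correlations of log2 CPM across genes of 0.990 to 0.993, against 0.945 to 0.957 between the groups (genes are not independent replicates). The biological coefficient of variation was 0.112 in the first group and 0.0765 in the second. The 10 genes with the most counts took 11.2% to 11.3% of a library in the first group and 8.82% to 9.68% in the second. Xist, an RNA of the inactive X chromosome, read 383, 305 and 332 CPM in the first group and 449, 427 and 436 CPM in the second, and the Y-linked genes Ddx3y, Uty, Kdm5d and Eif2s3y had no count in any of the 6 libraries.

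Gene expression differed broadly between these 2 LPS groups. Of 8815 genes tested, 2239 (25.4%) were higher in the second group and 2286 (25.9%) were lower at an adjusted p under 0.05, together 51.3%. The 3 libraries of one group lay wholly above or below those of the other for 5251 genes (59.6%). These shares are the background for every list below: a list with about 1 member in 4 called each way is like the transcriptome. Most differences were small, and with a minimum of 2-fold built into the test 270 genes were higher and 323 lower. The median log2 difference over all genes tested was -0.00059, where the log2 difference is always the second group minus the first. Scaling by library totals alone moved that median to 0.103 and the calls to 2802 higher and 1794 lower, so that 61.0% of called genes were higher in place of 49.5%.

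**Figure D1:**
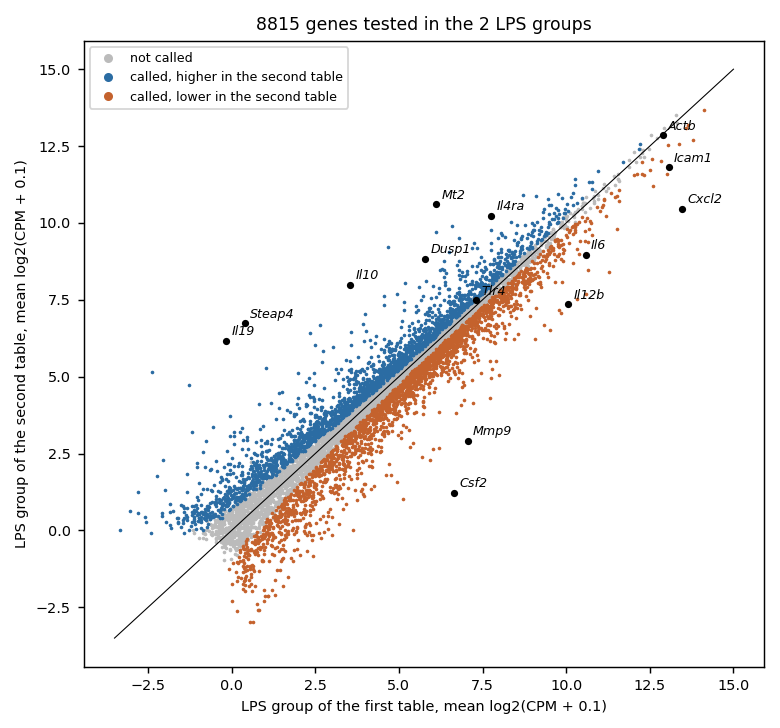
Mean level of each of the 8815 genes tested in the LPS group of the first table (x axis) and of the second (y axis), as log2(CPM + 0.1), where each point is a gene and the line marks equal levels. Blue points are the 2239 genes called higher in the second table and orange points the 2286 called lower. Csf2, Mmp9, Il12b and Cxcl2 lie below the line, Il19, Steap4, Il10, Mt2 and Dusp1 above it, and Actb and Tlr4 close to it.

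The largest rises in the second group included IL-10 family cytokines, metal-binding proteins and negative regulators. Il19 (chr1:130932656-130939241, minus strand, mm10), a cytokine of the IL-10 family, read 0.682, 0.643 and 1.05 CPM in the first group and 85.5, 58.3 and 71.4 CPM in the second. The log2 difference was 6.49 ± 0.21 (standard error, as after every ± of a log2 difference; n = 3 libraries per group; adjusted p = 1.3e-09), or 89.8-fold. Il10 itself (chr1:131019845-131024970, plus strand), the main cytokine that restrains macrophage activation, read 11.4, 8.04 and 15.3 CPM against 229, 257 and 276 CPM, a log2 difference of 4.46 ± 0.18 (adjusted p = 5.3e-09). Both genes were near absent in untreated cells, at 0.0129 ± 0.0223 and 0.802 ± 0.192 CPM (SD, n = 3 libraries), so the first group held a small part of the level seen in the second. Steap4, a metalloreductase of inflamed tissue, read 1.09, 1.35 and 1.19 CPM and 86.6, 123 and 109 CPM (6.44 ± 0.18). The metallothioneins Mt2 and Mt1, which bind zinc and copper, read 64.8, 72.3 and 70.7 and 63.5, 77.1 and 65.5 CPM in the first group. In the second they read 1588, 1584 and 1487 and 852, 829 and 802 CPM, log2 differences of 4.49 ± 0.09 and 3.59 ± 0.10. None of these 5 genes overlapped between the groups, which was a condition for being named among the largest rises.

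The other 7 of the 12 largest rises were Lipg, which encodes endothelial lipase (4.53 ± 0.26), the noncoding RNA U90926 (4.33 ± 0.26), Irf2bpl (4.11 ± 0.12), the receptor gene Slamf1 (4.07 ± 0.15), the IL-2 receptor alpha chain gene Il2ra (3.56 ± 0.15), the interferon-stimulated gene Slfn4 (3.31 ± 0.23) and Zc3h12d, of the Regnase family of RNA-binding proteins (3.18 ± 0.12). Irf2bpl and Zc3h12d stood apart from the rest in where the untreated cells lay. Irf2bpl read 5.05, 4.76 and 5.12 CPM in the first group and 76.8, 95.9 and 84.8 CPM in the second, against 79.9 ± 5.35 CPM in untreated cells. Zc3h12d read 3.75, 3.795 and 3.93 CPM and 36.5, 34.7 and 32.7 CPM, against 38.4 ± 5.52 CPM untreated. For this pair the second group lay near the untreated level and the first group far under it, whereas for Il10, Il19 and Steap4 the first group lay nearer to the untreated cells.

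The largest fall was that of a growth factor gene, and the next that of a matrix enzyme gene. Csf2 (chr11:54247270-54249899, minus strand), which encodes the macrophage growth factor GM-CSF, read 90.5, 117 and 91.3 CPM in the first group and 1.68, 3.28 and 1.73 CPM in the second, a log2 difference of -5.44 ± 0.20 (adjusted p = 2.6e-09) or 43.4-fold. Untreated cells had 0.0317 ± 0.0288 CPM, and the range over the 9 other LPS libraries of the second table was 1.03 to 25.4 CPM. Mmp9, the gelatinase B gene, read 148, 137 and 113 CPM against 7.72, 7.15 and 7.44 CPM (-4.16 ± 0.13), and Mmp8, a collagenase gene, 63.2, 66.4 and 65.04 CPM against 6.04, 7.903 and 4.69 CPM (-3.37 ± 0.14). Untreated cells had 79.1 ± 8.005 CPM of Mmp9 and 74.8 ± 8.63 CPM of Mmp8, so the second group lay far under them for both genes while the first lay above them for Mmp9. The others of the 12 largest falls were Tmem178 (-4.12 ± 0.23), Tsc22d1 (-3.63 ± 0.14), Lrrc32 (-3.52 ± 0.16), Mamdc2 (-3.42 ± 0.11), the cell cycle inhibitor gene Cdkn1a (-3.41 ± 0.21), Il23a (-3.31 ± 0.15), Gpr141 (-3.07 ± 0.11), Cxcl2 (-3.003 ± 0.11) and the nonclassical MHC gene H2-M2 (-2.97 ± 0.09). Cdkn1a has only 10.2% of its exon bases free of other rows, and reads over shared bases were not counted. Outside the 12, Egr2, a zinc finger transcription factor, stood at 153 ± 22.8 CPM untreated, 111, 105 and 93.9 CPM in the first group and 14.6, 13.8 and 13.7 CPM in the second (-2.89 ± 0.10).

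**Figure D2:**
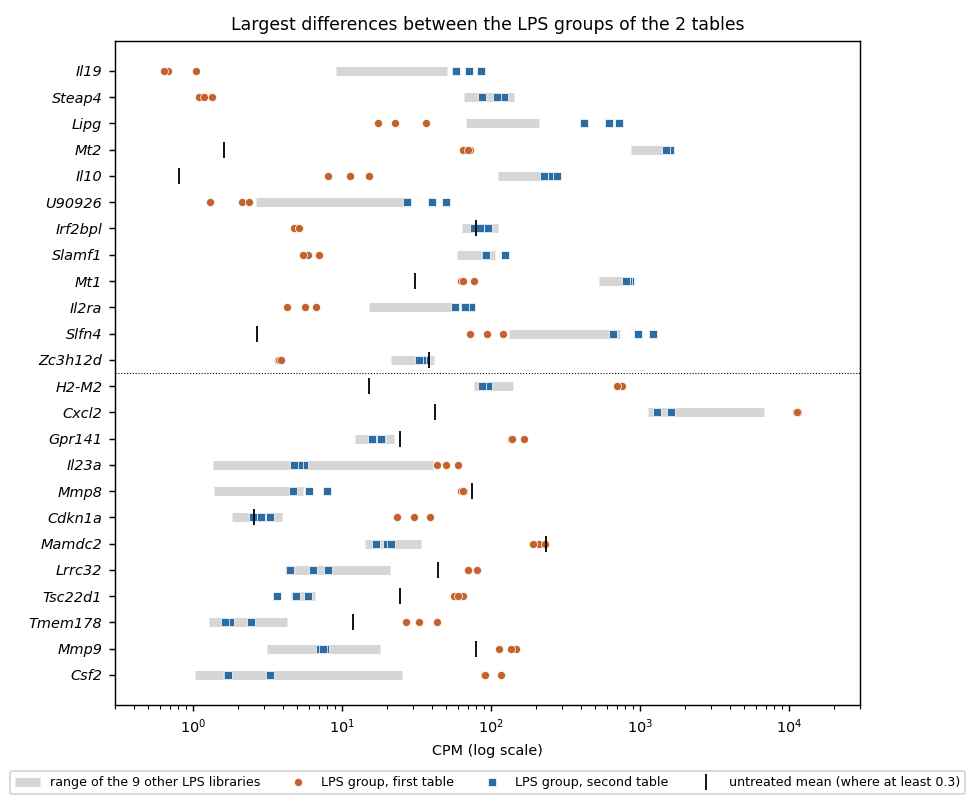
Level in CPM (log axis) of the 12 genes with the largest rises (top) and the 12 with the largest falls (bottom) in the LPS group of the second table. Circles are the 3 libraries of the first group, squares the 3 of the second, the grey bar is the range of the 9 other LPS libraries of the second table and the tick is the untreated mean where it reached 0.3 CPM. The circles and squares do not overlap for any of the 24 genes, because lack of overlap was a condition for choosing them. No grey bar reaches a circle.

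Most of the cytokine genes tested that start and sharpen inflammation were lower in the second group, but not all. Of 20 such genes listed, 17 were tested: 11 were lower, 3 higher and 3 not called, with a median log2 difference of -1.04. Il12b, which encodes the subunit shared by IL-12 and IL-23, read 1163, 1034 and 1024 CPM in the first group and 159.6, 169 and 164 CPM in the second (-2.71 ± 0.09, adjusted p = 1.3e-09). Il23a, the second subunit of IL-23, read 60.5, 50.2 and 43.2 CPM and 5.55, 5.13 and 4.79 CPM. Il6, whose product drives fever and the acute phase response, read 1379.6, 1546 and 1667 CPM and 615, 411 and 473 CPM (-1.62 ± 0.14). All 3 were near 0 in untreated cells, at 1.05, 0.0129 and 0.327 CPM, so both groups lay above untreated cells and differed in how far.

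The interleukin 1 genes differed from each other in size. Il1a read 3103, 2806 and 2864 CPM and 879.7, 972 and 838 CPM, a log2 difference of -1.71 ± 0.09. Il1b read 8062, 9321 and 8207 CPM and 5856, 6328 and 5812 CPM (-0.51 ± 0.09, adjusted p = 7.1e-04); this call was lost when the untreated libraries were added to the fit. Osm (-1.35), Il27 (-0.89), Tnfsf9 (-1.22), Tnfsf15 (-1.04) and Il12a (-3.38) were the other members that were lower. Higher were Il19, the granulocyte growth factor gene Csf3 (1.86 ± 0.32) and Ebi3 (0.74 ± 0.10), a subunit of IL-27 and IL-35. The other IL-27 subunit gene, Il27, went the opposite way, from 568, 632 and 708 CPM in the first group to 393, 299.6 and 339 CPM in the second. Tnf, the gene of tumour necrosis factor, was not called (-0.28 ± 0.19, adjusted p = 0.23), but it has 2.904% of its exon bases free of other rows and its level rests on few reads.

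**Figure D3:**
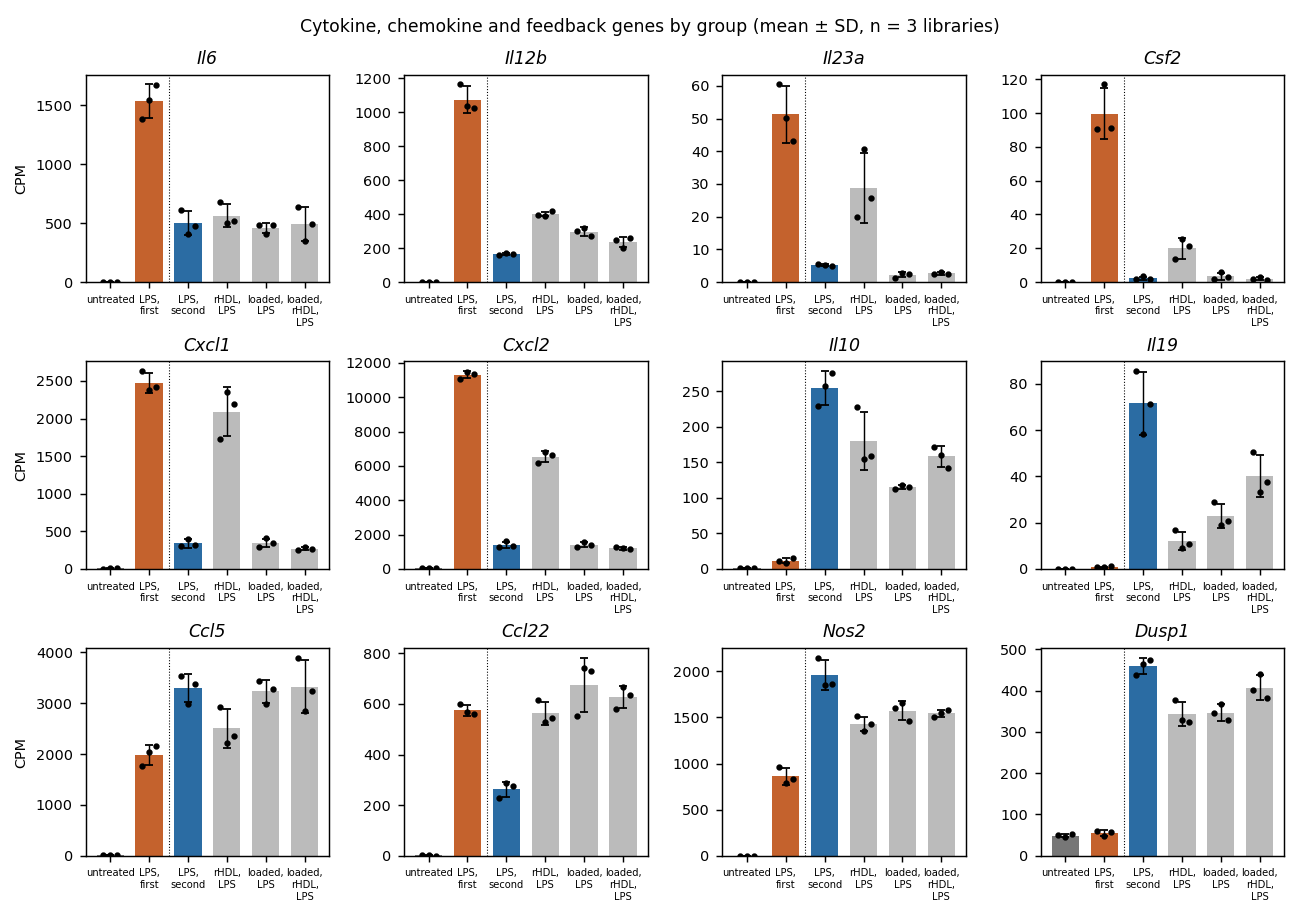
Levels in CPM of 12 cytokine, chemokine and feedback genes in the 6 groups of the series, with bars for the mean, error bars for the SD and dots for the 3 libraries; the dotted line parts the first table (left) from the second (right). Il6, Il12b, Il23a, Csf2, Cxcl1 and Cxcl2 are higher in the LPS group of the first table, and Il10, Il19, Ccl5, Nos2 and Dusp1 in that of the second.

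Neutrophil-attracting chemokines had the median farthest from 0 of the 40 lists. All 5 tested were called, 4 lower and 1 higher, with a median log2 difference of -2.87. Cxcl1, Cxcl2 and Cxcl3, which lie close together on chromosome 5 and bind the receptor CXCR2, are classic early NF-kB targets. Their RefSeq promoters (GRCm38.p6, the assembly of mm10) are printed because each of the 3 holds 1 match to the kB pattern GGANNTTCC, in capitals. The 250 bases before the start are shown, 5′ to 3′ on the gene's strand, for Cxcl1 (chr5:90890995-90891244, plus strand), Cxcl2 (chr5:90903649-90903898, plus strand) and Cxcl3 (chr5:90785851-90786100, plus strand).
Cxcl1: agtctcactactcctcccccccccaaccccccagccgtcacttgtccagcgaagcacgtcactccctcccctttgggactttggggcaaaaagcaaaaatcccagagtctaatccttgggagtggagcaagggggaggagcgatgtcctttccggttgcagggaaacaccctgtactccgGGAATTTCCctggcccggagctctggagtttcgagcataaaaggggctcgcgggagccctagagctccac
Cxcl2: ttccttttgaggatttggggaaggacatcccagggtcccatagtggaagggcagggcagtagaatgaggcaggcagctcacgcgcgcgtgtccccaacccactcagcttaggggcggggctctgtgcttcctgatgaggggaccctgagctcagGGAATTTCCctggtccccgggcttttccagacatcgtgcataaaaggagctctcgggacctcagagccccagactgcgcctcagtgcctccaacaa
Cxcl3: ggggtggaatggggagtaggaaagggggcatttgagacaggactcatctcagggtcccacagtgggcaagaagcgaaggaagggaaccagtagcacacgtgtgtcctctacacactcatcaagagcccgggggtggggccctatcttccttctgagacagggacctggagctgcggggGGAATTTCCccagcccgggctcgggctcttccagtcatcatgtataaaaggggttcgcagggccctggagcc
The match begins at -70, -96 and -72 from the start and reads the same in the 3 genes, GGAATTTCC. Either strand was searched from 250 bases before to 50 after the start, and 4.86% of the 27025 genes with a promoter in the table hold a match. Ppbp, the member that was higher, has a promoter in the table and holds none. Among genes with a promoter, the share with a match was 6.51% of those called lower, 5.85% of those called higher and 5.74% of those tested. A match describes the letters and not a binding site.

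These 3 genes had like differences between the groups. Cxcl1 read 2629, 2375 and 2423 CPM in the first group and 299, 402 and 315 CPM in the second (-2.87 ± 0.12, adjusted p = 6.3e-09). Cxcl2 read 11093, 11498 and 11340.0 CPM and 1304, 1623 and 1305 CPM (-3.003 ± 0.11), and Cxcl3 1582, 1680.4 and 1385 CPM and 188, 245 and 188 CPM (-2.90 ± 0.12). Both groups lay far above the untreated means of 5.88, 41.9 and 2.75 CPM, and the first was 7.31-, 8.02- and 7.47-fold above the second. Cxcl5 was lower at a low level (2.05, 3.47 and 1.89 CPM against 0.792, 1.09 and 1.22 CPM), and Ppbp, the platelet basic protein gene, was higher (0.477, 0.9 and 0.911 against 5.25, 2.27 and 4.59 CPM, 2.37 ± 0.37). In the group of the second table that had rHDL before LPS, the means were 2092 ± 327 CPM for Cxcl1 and 6529.6 ± 311 CPM for Cxcl2 (SD, n = 3), nearer to the first LPS group than the plain LPS control of their own table was.

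Chemokines for monocytes and lymphocytes leaned the same way, with 7 of 11 lower, 2 higher and 2 not called (median -0.79). Ccl22, a ligand of CCR4 on regulatory T cells, read 599, 567 and 558 CPM in the first group and 229, 286 and 275 CPM in the second (-1.12 ± 0.09). Ccl3, which attracts monocytes, read 4971, 5974 and 6449 CPM and 3316, 3387 and 3341 CPM (-0.79 ± 0.10), and Ccl2, the ligand of CCR2, 272, 409 and 357 CPM and 196, 136 and 158 CPM (-1.08 ± 0.15). Its near relative Ccl7 was higher, from 43.4, 64.1 and 81.7 CPM to 177, 100.05 and 138 CPM (1.13 ± 0.22), as was the eosinophil chemokine gene Ccl24 (3.08 ± 0.22). Ccl4, which sits beside Ccl3 in the genome, was not called (-0.07 ± 0.16, adjusted p = 0.74), and its first-group libraries spread from below to above the second group. Without replicate 1 of the first group, its lowest library, Ccl4 was called lower.

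The interferon-dependent chemokines did not follow them. Ccl5, which attracts T cells and monocytes, read 1767, 2041 and 2152 CPM in the first group and 3534, 2992 and 3369 CPM in the second (0.73 ± 0.10). Ccl8 (2.82 ± 0.38) and Ccl12 (1.08 ± 0.28) were higher too, the latter with overlapping libraries. Cxcl10 was not called (4879, 5475 and 7628 against 8586, 5712 and 7904 CPM, 0.30 ± 0.17, adjusted p = 0.16), but was called higher without replicate 3 of the first group or replicate 2 of the second. Cxcl9 was lower by a narrow margin (-0.56 ± 0.21, adjusted p = 0.046), and that call was lost without replicate 3 of the first group, replicate 2 of the second or replicate 3 of the second.

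Genes that restrain inflammation were higher more often than not: 8 of 13 tested were higher, 4 lower and 1 not called (median 0.65). Besides Il10 these included Il4ra, the receptor chain for IL-4 and IL-13, at 227, 209 and 213 CPM in the first group and 1158, 1254 and 1211 CPM in the second (2.48 ± 0.08, adjusted p = 1.3e-09). Hmox1, the haem-degrading enzyme gene, read 148, 168 and 141 CPM and 602, 671 and 666 CPM (2.09 ± 0.09). Socs3, the inhibitor of IL-6 receptor signalling that IL-10 induces through STAT3, read 1603, 1556 and 1730.0 CPM and 2438, 2683 and 2555 CPM (0.65 ± 0.08). The NF-kB cofactor gene Bcl3 (0.94 ± 0.10), Il13ra1, Cd200r1 and the IL-1 receptor antagonist gene Il1rn (0.62 ± 0.14) were also higher. Lower were Gdf15, a stress-induced cytokine gene (279, 305 and 266 against 82.001, 115 and 106 CPM, -1.49 ± 0.12), Socs1 (-1.14 ± 0.27), Tgfb1 (-0.52 ± 0.08) and the IL-10 receptor gene Il10ra (-0.62 ± 0.09), so that the ligand Il10 and its receptor chain moved in opposite directions.

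The promoters of Il19 and Steap4 are shown because, of the 12 largest rises, these 2 hold the STAT pattern TTCNNNGAA, in capitals. That pattern was added after the values had been seen, and 10 of the 12 genes have a promoter in the table. The 250 bases before the start are those of Il19 (chr1:130940116-130940365, minus strand) and Steap4 (chr5:7960222-7960471, plus strand).
Il19: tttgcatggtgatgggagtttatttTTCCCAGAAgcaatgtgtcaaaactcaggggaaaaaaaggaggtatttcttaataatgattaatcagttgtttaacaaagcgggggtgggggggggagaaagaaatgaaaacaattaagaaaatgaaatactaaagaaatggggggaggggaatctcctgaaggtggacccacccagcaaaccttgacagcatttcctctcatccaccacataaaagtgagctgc
Steap4: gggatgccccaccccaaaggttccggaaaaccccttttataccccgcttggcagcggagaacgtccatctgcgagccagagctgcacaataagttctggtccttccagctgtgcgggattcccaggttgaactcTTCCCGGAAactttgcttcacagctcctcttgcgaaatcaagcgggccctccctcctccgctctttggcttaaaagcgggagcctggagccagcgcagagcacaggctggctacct
The match begins at -225 in Il19 and at -116 in Steap4. Of all genes with a promoter, 9.55% hold a match, against 2 of these 10 and 1 of the 8 largest falls that have a promoter. Of the patterns fixed beforehand, GAAANNGAA and TGANTCA were as frequent in these 10, and each of the others was held by 1 gene or none. GAAANNGAA was held by Il19 and Zc3h12d (9.76% of all genes) and TGANTCA by Mt2 and Slfn4 (8.97%). Il19 also holds the kB pattern, and only STAT matches are in capitals above.

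Toll-like receptor and adaptor genes differed in both directions. Of 17 Toll-like receptor and adaptor genes tested, 5 were higher and 6 lower (median 0.09), and without replicate 3 of the second group 3 were higher. The median was -0.012 without replicate 2 of the first group and 0.0048 without replicate 1 of the second. Tlr4, the receptor of LPS, read 174, 136 and 162 CPM in the first group and 183, 181 and 173 CPM in the second, and was not called (0.19 ± 0.10, adjusted p = 0.12). It was called as higher when libraries were scaled by totals alone or replicate 1 of the first group was left out. Cd14, the co-receptor that hands LPS to TLR4, was lower, at 2896, 3282 and 3088 CPM against 1614, 1814 and 1659.5 CPM (-0.87 ± 0.09, adjusted p = 9.0e-06), though still above the untreated 965 ± 146 CPM. Tlr13, a receptor for bacterial ribosomal RNA, stood at 398 ± 8.73 CPM untreated, 160.01, 149 and 147 CPM in the first group and 46.9, 46.998 and 40.4 CPM in the second (-1.76 ± 0.09). Tlr3, the receptor for double-stranded RNA, was higher (101, 92.5 and 124 against 237, 169 and 220.3 CPM, 0.98 ± 0.14), and the adaptor gene Myd88 was slightly higher (0.39 ± 0.09) while Ticam2, the TRIF-related adaptor, was lower (-0.65 ± 0.09).

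NF-kB subunits and their targets were mostly lower: 9 of 16 were lower, 4 higher and 3 not called (median -0.37). The 4 higher were the subunit gene Nfkb2, Sod2, Tnip3 and Zc3h12a. Icam1, an adhesion molecule and NF-kB target, read 8582, 8481 and 8620.5 CPM in the first group and 3505, 3718 and 3525 CPM in the second (-1.26 ± 0.08). Nfkb1 (-0.42), Rel (-0.39), Rela (-0.35) and the inhibitor gene Nfkbie (-0.58) were lower by less. Tnip3, which limits NF-kB signalling together with A20, went the other way, from 403, 394 and 460.1 CPM to 1905, 1896 and 2002 CPM (2.21 ± 0.09), and the RNase gene Zc3h12a, whose product degrades cytokine mRNAs, read 262, 250.3 and 254 CPM and 368, 397 and 366 CPM (0.56 ± 0.08). A20 itself, Tnfaip3, was lower (-0.85 ± 0.11, with 9.38% of exon bases of its own), and the NF-kB inhibitor gene Nfkbia was not called (0.19 ± 0.09, adjusted p = 0.096).

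Genes that brake MAP kinase signalling and cytokine mRNA differed in both directions. Dusp1, the phosphatase that switches off p38 and JNK, read 60.4, 47.9 and 57.3 CPM in the first group and 437, 465 and 475 CPM in the second (3.06 ± 0.10, adjusted p = 1.3e-09), against 48.8 ± 3.04 CPM in untreated cells. Zfp36, the gene of tristetraprolin, which destabilises cytokine mRNAs, read 637, 642 and 824 CPM and 1660.1, 1772 and 1791 CPM (1.31 ± 0.11). The first group thus lay near the untreated level for Dusp1 and the second far above it, while for Zfp36 both lay above. Dusp4, a phosphatase of nuclear ERK, went down from 138, 111 and 108 CPM to 31.7, 40.8 and 32.5 CPM (-1.76 ± 0.12), and over the list 5 of 12 were higher and 4 lower (median 0.14, or 0.089 without replicate 1 of the first group and 0.21 without its replicate 3). Of 17 immediate early factors, 8 were lower and 3 higher (median -0.24, or -0.14 without replicate 3 of the first group and -0.13 without replicate 2 of the second). Fos was higher (3.27, 4.25 and 6.38 against 20.5, 11.9 and 18.4 CPM, 1.86 ± 0.25) but below its untreated 126 ± 14.2 CPM in both groups, and the AP-1 partner Fosl2 read 90.7, 62.7 and 64.7 CPM and 180.3, 259.6 and 197 CPM (1.55 ± 0.16). Maff (-1.66 ± 0.10), Ier5 (-1.20 ± 0.10), Nr4a3 (-1.04 ± 0.16) and Egr1 (-0.73 ± 0.18) were lower.

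Interferon genes differed in both directions. Ifnb1, the interferon beta gene, read 6.55, 11.1 and 12.2 CPM in the first group and 1.68, 1.35 and 1.53 CPM in the second (-2.71 ± 0.28, adjusted p = 9.8e-06). Irf1 (-1.74 ± 0.17) and Irf8 (-1.01 ± 0.14), transcription factors of interferon-responsive promoters, were lower as well, as was the interferon gamma receptor gene Ifngr1 (332, 344 and 366 against 139, 155 and 146 CPM, -1.24 ± 0.08). Its partner Ifngr2 (0.91 ± 0.07), the interferon alpha and beta receptor gene Ifnar1 (0.42 ± 0.08) and Irf2 (0.49 ± 0.11) were higher. Over that list of factors and receptors 9 of 16 were higher and 6 lower (median 0.35). Over its genes with a single row each, 5 were higher and 5 lower, and the median turned to -0.12. Irf7 and Stat3 have no exon base of their own and so had no count in any of the 6 libraries.

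Antiviral genes downstream of interferon were higher in the second group or not called. Of 28 tested, 20 were higher, none was lower and 8 were not called, with a median log2 difference of 0.50, against 25.4% higher over all genes. Oas2, an oligoadenylate synthetase that senses double-stranded RNA, read 300.1, 215 and 289.5 CPM in the first group and 837, 719 and 778 CPM in the second (1.54 ± 0.12, adjusted p = 1.3e-06). Zbp1, a sensor of Z-form nucleic acid, read 170.2, 162 and 197 CPM and 523, 414 and 489 CPM (1.43 ± 0.11), and Oasl2 942, 856 and 1010.0 CPM and 2016, 1569.8 and 1819 CPM (0.94 ± 0.11). Ddx58, which encodes the RNA sensor RIG-I (0.50 ± 0.11), and Usp18, the interferon signalling inhibitor (0.85 ± 0.15), were higher by less. Well-known members that were not called were Rsad2 (0.25 ± 0.16, adjusted p = 0.2), Ifit1 (0.29 ± 0.13) and Mx1 (0.23 ± 0.11). In these genes replicate 2 of the second group was the lowest of its 3 libraries and replicate 1 the highest, as Rsad2 shows with 14504, 8797 and 12062 CPM against 9024, 9283 and 11365 CPM in the first group. Scaling by library totals, or leaving out replicate 2 of the second group, called Rsad2, Ifit1 and Mx1 as higher, as leaving out replicate 3 of the first group did for Ifit1.

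Promoters of Oas3 and Oas1a show the interferon-stimulated response element pattern GAAANNGAA, in capitals, which 13 of the 22 antiviral genes with a promoter hold and 9.76% of all genes of the table. The matches overlap each other within each promoter. Shown are the 250 bases before the start of Oas3 (chr5:120777660-120777909, minus strand) and Oas1a (chr5:120907526-120907775, minus strand).
Oas3: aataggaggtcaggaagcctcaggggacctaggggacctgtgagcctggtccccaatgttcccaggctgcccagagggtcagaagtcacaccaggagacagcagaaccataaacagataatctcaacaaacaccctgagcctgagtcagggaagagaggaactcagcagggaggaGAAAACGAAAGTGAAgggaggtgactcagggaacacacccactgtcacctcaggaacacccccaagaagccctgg
Oas1a: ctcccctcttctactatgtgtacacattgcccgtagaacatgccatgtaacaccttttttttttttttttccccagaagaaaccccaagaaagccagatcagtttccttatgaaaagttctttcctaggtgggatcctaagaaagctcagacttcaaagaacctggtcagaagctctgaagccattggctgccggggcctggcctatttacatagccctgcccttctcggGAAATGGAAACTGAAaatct
The 2 matches begin at -75 and -69 in Oas3 and at -20 and -14 in Oas1a. Oas3 read 592, 496 and 602 CPM in the first group and 1168, 908 and 1080.0 CPM in the second (0.90 ± 0.11), and Oas1a 233, 272 and 286 CPM and 399, 341 and 377 CPM (0.50 ± 0.10).

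The GTPases that attack vacuolar pathogens and the Ifi200 DNA sensors were also more often higher than lower, with 9 of 16 higher, 1 lower and 6 not called (median 0.42). Igtp read 414, 447 and 505 CPM in the first group and 795, 642 and 773 CPM in the second (0.69 ± 0.10), and Ifi205 684, 679 and 804 CPM and 1400.5, 1084 and 1282 CPM (0.80 ± 0.11). The guanylate-binding protein gene Gbp5 was not called (0.18 ± 0.09, adjusted p = 0.13) unless replicate 2 of the second group was left out or libraries were scaled by totals. The member that was lower was Gbp3 (-0.78 ± 0.13), with 11.2% of its exon bases of its own.

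Effector enzymes were unequal. Nos2, the inducible nitric oxide synthase, read 961, 788 and 830.5 CPM in the first group and 2142, 1856 and 1866 CPM in the second (1.18 ± 0.10, adjusted p = 2.0e-06), from 1.25 ± 0.259 CPM untreated. Ptgs2, the inducible cyclooxygenase, was at 10659, 9332 and 10742 CPM and 9492, 10179 and 9326 CPM and was not called (-0.08 ± 0.09, adjusted p = 0.47). The enzymes before and after it in prostaglandin E2 synthesis were higher: Pla2g4a, the phospholipase that frees arachidonic acid, read 72.3, 71.1 and 78.99 CPM and 362, 326 and 368 CPM (2.25 ± 0.09), and Ptges, the terminal synthase, 83.2, 73.5 and 77.1 CPM and 332, 401 and 354 CPM (2.22 ± 0.10). The constitutive cyclooxygenase gene Ptgs1 was lower (-2.33 ± 0.19). Irg1, whose product makes the antibacterial metabolite itaconate, was lower as well, at 12390.0, 11497 and 12892 CPM against 9857, 7859.6 and 8545 CPM (-0.49 ± 0.10). Over the list 6 of 11 were higher and 3 lower (median 0.62, or 0.39 with a minimum count of 50).

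In the inflammasome the sensor and the protease differed in opposite directions. Nlrp3, the sensor that LPS primes, read 2451, 2192 and 2353 CPM in the first group and 1221, 1223 and 1186 CPM in the second (-0.95 ± 0.08). Casp1, the protease that cuts pro-IL-1β, read 341, 381 and 395 CPM and 654, 575 and 645 CPM (0.75 ± 0.09), and the adaptor gene Pycard was higher (0.65 ± 0.13). Over 12 genes tested 6 were higher and Nlrp3 alone was lower (median 0.24, or 0.40 without replicate 1 of the first group). For T-cell costimulation, Cd86 was higher, from 65.5, 62.1 and 91.5 CPM to 268, 198 and 249 CPM (1.71 ± 0.15), and Icosl (-1.04 ± 0.09) and the inhibitory ligand gene Cd274 (-0.39 ± 0.09) were lower, so the list as a whole had 3 higher and 4 lower of 16. The class II antigen-presentation genes H2-Aa (342, 353 and 397 against 918, 708 and 823 CPM, 1.16 ± 0.11), H2-Ab1 (0.47 ± 0.10), H2-Eb1 (0.90 ± 0.11) and Cd74 (0.70 ± 0.11) were the 4 of 6 tested that were higher, and none was lower.

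Adhesion and matrix genes were lower in 8 of 14 cases and higher in 4 (median -0.61, or -0.93 with a minimum count of 50). Besides Mmp9 and Mmp8, Thbs1, which encodes thrombospondin 1, read 246, 196 and 209 CPM in the first group and 32.2, 32.8 and 27.7 CPM in the second (-2.81 ± 0.11). Mmp12, the macrophage elastase, read 6472, 6291 and 5847 CPM and 2264, 2719.7 and 2058 CPM (-1.40 ± 0.11), and Vcam1, an adhesion molecule, 434, 474 and 458 CPM and 234, 230.4 and 253 CPM (-0.93 ± 0.08). The collagenase gene Mmp13, by contrast, rose from 1237, 1224 and 1215 CPM to 2658, 2785 and 2749 CPM (1.16 ± 0.08). Selp, which encodes P-selectin, was higher too (6.34 ± 0.23), at under 1 CPM in each library of the first group. Matrix metalloproteinases thus did not move as a family, with Mmp8, Mmp9 and Mmp12 lower and Mmp13 and Mmp14 (0.30 ± 0.08) higher, under each of the 3 scalings tried.

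Lipid genes are of interest because the second table is about rHDL and cholesterol, yet neither group of this comparison received either. Abcg1, which exports cholesterol to HDL, read 489, 476 and 489.7 CPM in the first group and 129.6, 119 and 124 CPM in the second (-1.96 ± 0.08, adjusted p = 4.7e-09), against 511 ± 81.5 CPM untreated. Abca1, which loads lipid onto APOA1, read 1139, 871 and 909.5 CPM and 550.04, 606 and 526 CPM (-0.80 ± 0.11), against 676 ± 69.1 CPM untreated. In the 9 other LPS libraries of the second table the range was 19.9 to 771 CPM for Abcg1 and 54.1 to 1673 CPM for Abca1, so both groups lay within it for each gene. The LXR list as a whole had 4 higher and 4 lower of 14 (median 0.09, or 0.049 without replicate 1 of the first group and 0.19 without replicate 2 of the second), with 2 higher when replicate 3 of the second group was left out, and Apoe was not called (0.16 ± 0.12). Cholesterol synthesis had 7 higher and 5 lower of 19 (median 0.06), and leaving out replicate 1 or replicate 3 of the second group left 1 lower, and replicate 3 of the first group 2. Its median was -0.028 without replicate 2 of the second group and between 0.10 and 0.15 without replicate 1 or 3 of the first or replicate 1 of the second. Lipid uptake genes were lower in 6 of 10 cases and higher in none (median -0.41, or -0.26 without replicate 1 of the first group). These included Lpl, the lipoprotein lipase gene (7896, 8736 and 8331 against 3172, 3081 and 3044 CPM, -1.42 ± 0.08), and the scavenger receptor gene Marco (16.2, 18.4 and 19.3 against 2.28, 2.02 and 3.06 CPM, -2.88 ± 0.17).

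Genes of the unfolded protein response in the endoplasmic reticulum were lower in 13 of 17 cases and higher in none (median -0.37), and ATF4 target genes were lower in 11 of 14 (median -0.87, or -0.44 over genes with a single row). Sdf2l1, a chaperone cofactor, read 39.7, 47.9 and 44.2 CPM in the first group and 20.3, 20.3 and 22.4 CPM in the second (-1.07 ± 0.10). Herpud1, a degradation factor of the same organelle, read 195, 199 and 203 CPM and 83.5, 123 and 104 CPM (-0.94 ± 0.12). Among ATF4 targets, Chac1 (-1.41 ± 0.10), Trib3 (-1.26 ± 0.11) and Sesn2 (-1.05 ± 0.09) were lower, and the cystine transporter gene Slc7a11 read 1065, 768 and 715 CPM and 472, 547 and 438 CPM (-0.81 ± 0.14). Cytosolic heat shock genes were higher in 6 of 12 cases and lower in 2 (median 0.44, or 0.67 with 1 lower over genes with a single row). Hspa8, the constitutive HSP70, read 673, 627 and 627 CPM and 1302, 1488 and 1409.5 CPM (1.12 ± 0.08), and the inducible Hspa1a 8.86, 7.204 and 8.201 CPM and 45.1, 68.1 and 73.01 CPM (2.94 ± 0.18). Hspa1a and Hspa1b are near-identical copies, so the split of reads between them is uncertain. NRF2 targets had 6 higher and 6 lower of 18 (median -0.09). That median lay between -0.15 and -0.0047 when replicate 1 or 2 of the first group or any 1 library of the second was left out, and was 0.008 with 3 lower under library totals.

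Glycolysis and hypoxia genes were higher in 11 of 19 cases and lower in 4 (median 0.63). Of 22 oxidative phosphorylation genes none was higher, 6 were lower and 16 were not called (median -0.14). Over all genes 25.4% were higher and 25.9% lower, so the lower share of these genes was like the transcriptome. Tpi1, a glycolytic enzyme gene, read 142, 158 and 137 CPM in the first group and 388, 388 and 378 CPM in the second (1.40 ± 0.08), and Pgk1 201, 230.03 and 209 CPM and 405, 408 and 397 CPM (0.92 ± 0.08). Hif1a, the oxygen-regulated transcription factor gene that LPS induces, read 390.3, 339 and 373 CPM and 671, 648 and 633 CPM (0.82 ± 0.08), and Bnip3, a mitophagy gene under its control, 14.8, 15.2 and 16.4 CPM and 64.9, 83.9 and 66.1 CPM (2.21 ± 0.12). Adm, another hypoxia gene, was lower (-2.08 ± 0.20), as were Gpi1, Eno1 and Egln3, and the lowest log2 difference of the list was -5.14. Leaving out replicate 1 of the first group raised the count of lower oxidative phosphorylation genes to 12 and moved their median to -0.22. Leaving out replicate 2 of the first group gave 1 higher and a median of -0.061, and leaving out that library, or replicate 1 or 3 of the second group, left 2 lower glycolysis genes. Lysosomal genes were lower in 12 of 20 cases and higher in 2 (median -0.37), or higher in none with a minimum count of 50. The lower ones included the cathepsin genes Ctsd (-0.84 ± 0.10) and Ctsl (1396, 1618 and 1488 against 675, 707 and 659.7 CPM, -1.14 ± 0.09).

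**Figure D4:**
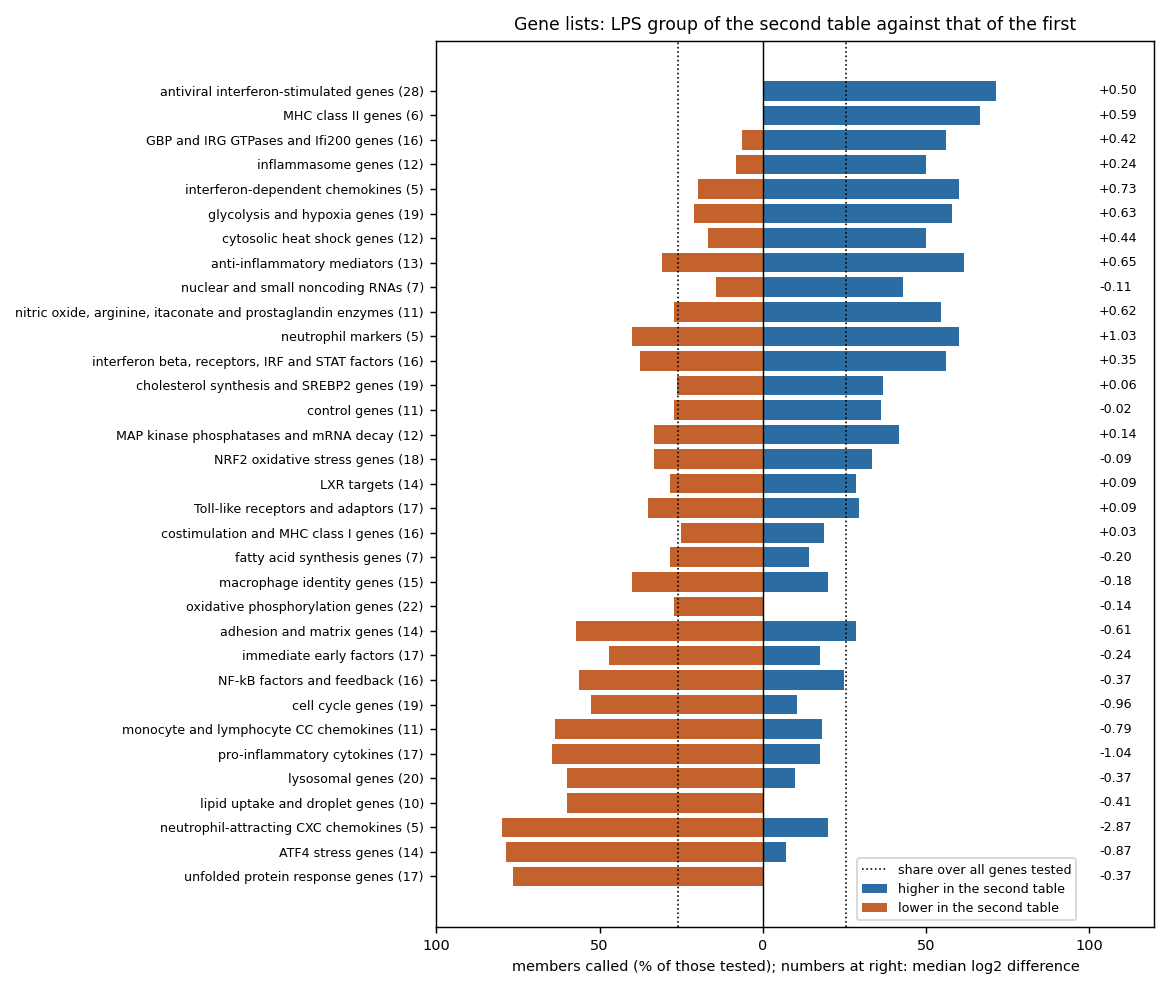
Share of tested members of each gene list called higher (blue, right) or lower (orange, left) in the LPS group of the second table, for lists with at least 5 members tested; the number tested is in parentheses, the median log2 difference stands at the right and dotted lines mark the shares over all 8815 genes. Antiviral and class II genes reach furthest to the right, and unfolded protein response and ATF4 genes and neutrophil-attracting chemokines furthest to the left.

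Cell cycle genes were lower in 10 of 19 cases and higher in 2 (median -0.96). With a minimum count of 50, 4 were lower and the median was -0.13, and it was -0.40 in thinned counts and -0.58 over genes with a single row. Mki67, the proliferation marker, read 472, 347 and 384 CPM in the first group and 127, 176 and 138 CPM in the second (-1.45 ± 0.14), and Top2a, which untangles DNA in dividing cells, 15.3, 16.7 and 13.5 CPM and 3.07, 5.63 and 4.89 CPM (-1.73 ± 0.19). In bulk RNA, fewer cells of a type and less RNA per cell cannot be told apart. Among genes of macrophage identity 3 of 15 were higher and 6 lower (median -0.18, or -0.048 without replicate 3 of the first group and 0.0002 without replicate 2 of the second). Emr1, which encodes F4/80, did not differ by a called amount (2947, 2811 and 3262 against 3159.7, 2908 and 3117 CPM, 0.03 ± 0.09), and Csf1r, the M-CSF receptor, was lower (2851, 2691 and 2869 against 1880.2, 1778 and 1795 CPM, -0.63 ± 0.08). Fcgr1, the high-affinity IgG receptor, was higher, from 92.5, 93.5 and 150.1 CPM to 821, 608 and 779.9 CPM (2.72 ± 0.18).

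Summed marker levels of neutrophils, dendritic cells, osteoclasts and lymphoid cells did not overlap between the groups, as 59.6% of single genes did not. Those of the remaining cell types overlapped. Mast, erythroid and megakaryocyte markers summed to 50.3 to 80.1 CPM in the first group and 48.3 to 53.2 CPM in the second. Stromal and endothelial markers summed to 129 to 161 CPM and 149 to 175 CPM. The summed level of 12 neutrophil markers ranged from 90.6 to 100.4 CPM in the first group and from 163 to 200.1 CPM in the second, with Elane, Mpo and Retnlg, whose exons no other row overlaps, at 0 in all 6 libraries. S100a9 and the dendritic marker Clec9a were also listed at 0, which says nothing of their level, because nearly all or all of their exon bases are shared with other rows. Mmp8 and Lcn2, a siderophore-binding protein gene that macrophages also express (21.5, 20.8 and 28.2 against 184, 146 and 155 CPM, 2.78 ± 0.13), held most of the neutrophil sum, Mmp8 in the first group and Lcn2 in the second. Of the 5 neutrophil markers tested, S100a8, Csf3r and Lcn2 were higher and Mmp8 and Ngp lower. Dendritic cell markers summed to 478 to 609 CPM in the first group and 67.6 to 90.3 CPM in the second. That sum was nearly all Itgax, the CD11c gene (596, 535 and 463 against 74.6, 85.2 and 63.2 CPM, -2.84 ± 0.13), which macrophages express too. Batf3, a transcription factor of cross-presenting dendritic cells, was lower (10.6, 17.05 and 12.8 against 1.88, 2.27 and 1.53 CPM, -2.81 ± 0.23). Xcr1, the other dendritic marker tested, leaned the opposite way (0.58) without overlap between the groups but was not called. The osteoclast markers tested, Ctsk (-1.30 ± 0.12), Atp6v0d2 (-1.78 ± 0.09) and Mmp9, were all lower, with sums of 409 to 494 CPM against 104 to 107.7 CPM. The part of other cells in the results was not tested. Lymphoid markers summed to 1.67 to 2.11 CPM in the first group and 3.37 to 4.997 CPM in the second.

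Control genes were no more level between the groups than the transcriptome. Of 11 tested, 4 were higher (Tbp, Ppia and Pgk1 among them), 3 lower (Rplp0, Ywhaz and Gusb) and 4 not called (median -0.02). Over all genes tested 25.4% were higher and 25.9% lower, so the list was near the background. Actb, the cytoplasmic actin gene, read 6754, 7221 and 8716 CPM in the first group and 8392, 6320.0 and 7619 CPM in the second (-0.02 ± 0.12, adjusted p = 0.89). The ribosomal protein gene Rplp0 was lower (984, 1172 and 1113 against 647, 641 and 665 CPM, -0.74 ± 0.09), and ribosomal protein genes together took 1.93% to 2.60% of counts in the first group and 1.74% to 1.78% in the second. The nuclear RNAs Malat1 (876, 689 and 698 against 1699.6, 1323 and 1582 CPM, 1.02 ± 0.12) and Neat1 (0.67 ± 0.10) were higher. The part of RNA quality in these differences was not tested.

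For some genes all LPS groups of the second table lay apart from the first LPS group. Those given here are examples, and the share of all genes tested that did so was not counted. For Dusp1 the 9 other libraries ranged from 325 to 440.2 CPM, for Tnip3 from 1373 to 2048 CPM, for Egr2 from 12.2 to 29.8 CPM and for Icam1 from 3644 to 5198 CPM, none reaching a library of the first LPS group. For Il6 the range was 348 to 675 CPM and for Nlrp3 1198 to 1448 CPM, also clear of the first group. For others the treatments of that table reached the level of the first group. Ccl22 had means of 564 ± 46.04 CPM after rHDL, 675 ± 107 CPM after loading and 628 ± 42.9 CPM after both (SD, n = 3), close to the first LPS group, and Gdf15 ranged from 68.1 to 895 CPM. These levels are descriptions on a common scale and were not tested.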

How the data were processed

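RNA with an integrity number above 8 was poly(A)-selected. Per the submitters' processing notes, reads were processed with cutadapt, HISAT2, Subread featureCounts and DESeq2 on mm10, with no versions named. The 2 deposited tables hold raw counts, which the authors did not normalise, over the same 32850 rows. All 6696 rows without an exon base of their own had 0 counts, so reads over shared bases are missing and overlapping genes are measured in part. Rows were summed per gene symbol, leaving out 52 rows whose symbols had turned into dates. edgeR 4.0.16 (R 4.3.3) fitted the 6 libraries: filterByExpr (minimum count 10), TMM, quasi-likelihood F tests, Benjamini-Hochberg adjustment over all 8815 genes, called under 0.05. In simulated counts it called 64 of 96 genes changed by 1.5-fold, 89 of 100 changed by 2-fold and 8 of 8494 unchanged. The simulation changed only 200 genes, as many up as down, whereas 51.3% of genes were called in the data. Its rate of false calls may therefore not carry over.

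Members, gene lists and alternatives were chosen with earlier results of these data known. Named genes are the 12 largest rises and falls (called, mean log2 CPM of at least 3, no overlap, no predicted genes), up to 4 members per list by smallest p, and a panel of 48 genes. A part of them is printed, some list members are not reported here, and further list members were picked after their values were seen. Alternatives were DESeq2 1.42.0 and its size factors, library totals, 2 other filters, a replicate block, minimum folds of 1.5 and 2, fits with 9 or 18 libraries, genes with 1 row, thinned counts and leaving out each library.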

Additional observations from a re-analysis of the deposited data

How the results depend on the processing

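The counts of 2239 higher and 2286 lower genes stayed within 1.5 times under every alternative except a minimum fold change. With a minimum of 1.5-fold, 652 genes were higher and 744 lower, and with 2-fold 270 and 323. Leaving out 1 library at a time gave 1812 to 2380 higher and 1927 to 2456 lower genes. DESeq2 called 1987 higher and 2128 lower. Replicate numbers did not pair the libraries: the correlations of same-numbered deviations were -0.058, 0.0060 and 0.068, and the replicate block gave 2166 higher and 2224 lower genes. Of 162 printed genes that were called, 160 kept the call in every alternative without a minimum fold that tested them. The exceptions were Cxcl9 and Il1b, and no call changed direction. Of 177 printed genes tested, 168 were tested with a minimum count of 50 and 163 in the fit of genes with 1 row. Many were named for a small p or a large difference, which favours keeping a call. The second group's lower depth limits genes under about 1 CPM, which rest on about 10 counts a library.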

Other observations

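Genes of alternative activation, the state that IL-4 induces in macrophages, were mostly too low to test, and those tested did not move together. Mrc1, the mannose receptor gene, read 258, 247 and 294 CPM in the first LPS group and 496, 605 and 597 CPM in the second, a log2 difference of 1.09 ± 0.10 (edgeR adjusted p = 4.7e-06). The lectin gene Mgl2 was higher at a low level (0.682, 0.965 and 0.981 against 3.76, 3.78 and 3.77 CPM), and Chil3, the chitinase-like protein Ym1, was lower (1.4999, 2.06 and 2.17 against 0.099, 0.0841 and 0.204 CPM). Among fatty acid synthesis genes, the elongase gene Elovl6 read 1.09, 0.965 and 1.402 CPM in the first group and 8.42, 11.3 and 10.1 CPM in the second (3.11 ± 0.21), while Fasn and Acaca were not called. Kdr, a VEGF receptor gene of endothelial cells, read 65.04, 51.2 and 75.1 CPM and 121, 92.9 and 114 CPM (0.77 ± 0.14).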
